A study of Mus musculus with 70 samples.

Results

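The sites described here are CTCF peaks of the mouse embryo that were listed in every neural tissue and in neither limb nor face, or the reverse, at embryonic day (E) 12.5. A neural site was a peak of the forebrain (FB) list that overlapped by at least 1 bp a peak in the midbrain (MB), hindbrain (HB) and neural tube (NT) lists and no peak in the limb (LM) or craniofacial prominence (CF) list. A limb and face site was an LM peak that overlapped a CF peak and none of the 4 neural lists. There were 350 neural sites among the 43838 FB peaks and 1078 limb and face sites among the 49512 LM peaks, against 32671 FB peaks that overlapped a peak in all of the other lists, called shared sites below. The 6 lists held 288132 peaks in all, from 43838 in FB to 50804 in CF. A neural site had to be found in 4 lists and a limb and face site in 2, so the sizes of the classes cannot be compared with each other.

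CTCF binding was measured by ChIP-seq with an antibody to CTCF from Cell Signaling, and contacts of promoters by PLAC-seq, a proximity ligation assay in which ligated chromatin is pulled down with an antibody to H3K4me3 (Millipore). The tissues were FB, MB, HB and NT for the neural arm and LM and CF for the other arm, all untreated, dissected at E12.5 from C57BL/6N mice, with 2 biological replicates per tissue and assay. Each tissue holds many cell types, so a smaller share of cells with a site and weaker binding in each cell cannot be told apart. The CTCF list of a tissue pools its replicates and gives 1 value per tissue, whereas the PLAC-seq calls were read both per replicate library and pooled.

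CTCF contacts a long, oriented DNA motif through its zinc fingers and halts the cohesin complex as it extrudes loops of chromatin. Most of its sites are occupied in many cell types, and a minority, often weak, are bound in particular tissues. Through its sites CTCF can bring promoters and distal elements together or keep them apart, and in the developing nervous system and limb it is known for its part in the regulation of clustered genes.

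Sequences of 6 neural sites are shown because their nearest genes or contact partners carry the results that follow. The CTCF motif match is in capitals, read 5′ to 3′ on the strand that carries it, with 20 bp of GRCm38 (mm10) sequence on either side from RefSeq. The site near Pou3f2, a POU factor of neural progenitors and neurons, lay at chr4:22490505-22490563 on the minus strand, and that near Insm1, a zinc-finger factor of neuronal differentiation, at chr2:146221314-146221372 on the plus strand. The site near Pax3, a factor of the dorsal neural tube, neural crest and muscle progenitors, was at chr1:78200363-78200421 (minus). The site near Nova2, which encodes a neuronal splicing factor, was at chr7:18925253-18925311 (plus), the site near Igsf21, encoding a synaptic immunoglobulin superfamily protein, at chr4:140244178-140244236 (minus), and the site near Cdca7 at chr2:72638335-72638393 (plus).
Pou3f2: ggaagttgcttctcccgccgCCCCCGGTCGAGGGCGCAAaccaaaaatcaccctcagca
Insm1: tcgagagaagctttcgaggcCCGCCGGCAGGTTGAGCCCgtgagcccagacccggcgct
Pax3: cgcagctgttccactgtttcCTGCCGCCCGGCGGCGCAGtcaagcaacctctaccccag
Nova2: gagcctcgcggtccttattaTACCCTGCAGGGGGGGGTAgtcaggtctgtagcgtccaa
Igsf21: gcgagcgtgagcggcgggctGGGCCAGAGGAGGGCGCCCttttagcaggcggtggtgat
Cdca7: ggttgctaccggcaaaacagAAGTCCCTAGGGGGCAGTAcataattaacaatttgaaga

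The sites near Pou3f2, Insm1, Nova2 and Igsf21 lay within 3 kb of the transcription start site (TSS) of their gene, and those near Pax3 and Cdca7 between genes. The motif matches scored 9.91 bits at Pou3f2, 8.35 at Insm1, 10.8 at Pax3, 10.27 at Nova2, 15.3 at Igsf21 and 9.53 at Cdca7, where 7.45 bits was the lowest score counted as a match. The consensus of the motif, learned from the 5000 strongest FB peaks, was TGGCCACCAGGGGGCGCTA.

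For the limb and face sites, 6 further sequences are shown in the same way. Grem1 encodes a secreted antagonist of BMP ligands in the limb bud. The site nearest to it, at chr2:113778228-113778286 (minus), lay upstream of the Grem1 TSS, in an intron whose gene was not determined. Fgf10 encodes the growth factor of limb mesenchyme that is needed for limb outgrowth, and its site lay in an intron at chr13:118763151-118763209 (plus). The site near Bmp4, a ligand of limb and facial patterning, was at its promoter, chr14:46387910-46387968 (minus). The site near Tbx15, a T-box factor of skeletal mesenchyme, lay in an intron at chr3:99250172-99250230 (plus), that near Bnc2, a zinc-finger gene of mesenchymal cells, between genes at chr4:84069162-84069220 (minus), and that near Ets1, an ETS factor gene, between genes at chr9:33080582-33080640 (plus).
Grem1: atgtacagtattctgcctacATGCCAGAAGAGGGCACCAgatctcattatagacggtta
Fgf10: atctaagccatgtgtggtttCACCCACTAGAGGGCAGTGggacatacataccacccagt
Bmp4: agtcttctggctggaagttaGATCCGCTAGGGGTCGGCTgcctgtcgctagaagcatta
Tbx15: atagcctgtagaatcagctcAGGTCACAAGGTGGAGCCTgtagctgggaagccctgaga
Bnc2: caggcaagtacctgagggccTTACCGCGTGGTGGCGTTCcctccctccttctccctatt
Ets1: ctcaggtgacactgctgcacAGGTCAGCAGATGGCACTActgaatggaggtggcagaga

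The motif scores were 18.22 bits at Grem1, 17.97 at Fgf10, 10.57 at Bmp4, 10.83 at Tbx15, 8.1 at Bnc2 and 15.42 at Ets1. Some of the strongest members had no motif match. At the neural site near Ptprn, which encodes a protein of dense-core vesicles, the best score on either strand of the peak was −0.36 bits, and for the limb and face site near Clvs1 it was −0.65 bits. The 60 bp around their summits, chr1:75252455-75252514 and chr4:9097821-9097880, are given on the plus strand and in lower case for want of a match.
Ptprn: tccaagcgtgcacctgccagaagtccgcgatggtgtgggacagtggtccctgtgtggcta
Clvs1: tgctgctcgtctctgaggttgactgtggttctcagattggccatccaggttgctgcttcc

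Members of both classes were weak CTCF peaks. Strength here is the deposited fold enrichment of ChIP reads over input DNA at the peak, 1 value per list, and since the presence of these peaks chose the members it is described without a test. The median fold of the 350 neural sites was 5.64 in FB (range 2.70 to 15.4), 5.87 in MB (2.40 to 46.3), 5.28 in HB (2.73 to 28.6) and 5.51 in NT (2.74 to 29.1). That of the 1078 limb and face sites was 4.67 in LM (2.23 to 11.9) and 4.83 in CF (2.28 to 46.6). Shared sites had medians of 14.4 in FB, 15.2 in MB, 12.6 in HB, 13.2 in NT, 13.0 in LM and 15.1 in CF, so the member medians lay below those of shared sites in every list, as did the upper quartile of the members against the lower quartile of shared sites. The median neural site was stronger than 19.3% of all peaks in the FB list, 29.4% in MB, 26.4% in HB and 27.8% in NT, and the median limb and face site stronger than 18.8% in LM and 15.9% in CF.

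**Figure D1:**
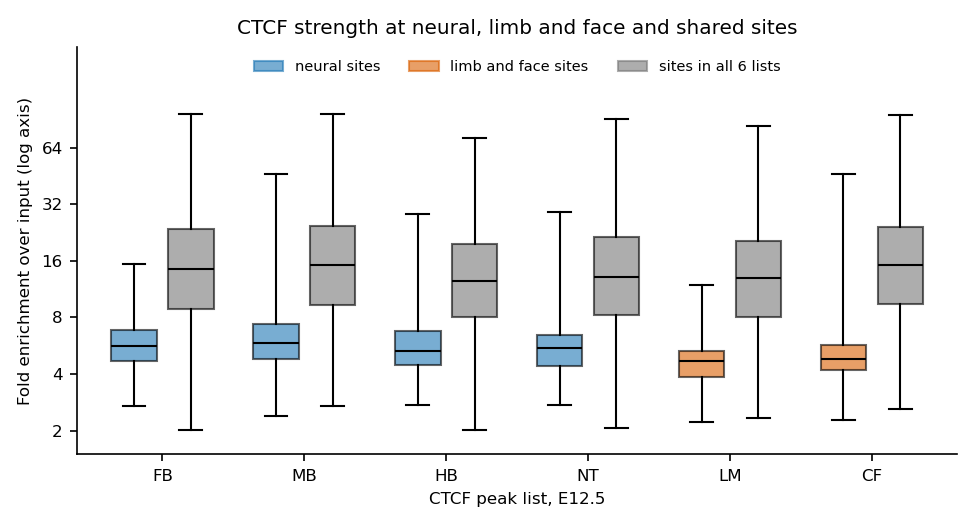
Fold enrichment over input (log axis) of neural sites, limb and face sites and shared sites in each of the 6 E12.5 CTCF lists, with boxes from the lower to the upper quartile, a line at the median and whiskers to the lowest and highest value. Member medians lay between 4.67 and 5.87, and shared medians between 12.6 and 15.2.

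The rule drew its line among weak peaks. FB peaks found in MB, HB and NT that missed the neural class because they were also listed in exactly 1 of LM and CF numbered 1568, with a median FB fold of 5.96, close to the 5.64 of the members. On the other side, 541 FB peaks without LM or CF overlap were listed in all but 1 of MB, HB and NT, with a median fold of 5.01. LM peaks shared with CF and listed in exactly 1 neural tissue numbered 1558, with a median LM fold of 4.71 against 4.67 for the members. A peak missing from a list may therefore be bound below the level at which peaks were called. With a second list deposited for each tissue, whose making is not given in the sources used here, the same rule found 187 neural and 1751 limb and face sites, which included 117 (33.4%) of the 350 and 692 (64.2%) of the 1078.

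Those second lists can also be read at the members themselves. The second limb list is named LB and was taken as limb because limb was the E12.5 tissue with no other second list, which bears on every value here that uses it. Of the 350 neural sites, 90.0% overlapped a peak in the second FB list, 88.0% in MB, 65.4% in HB and 85.7% in NT, against 8.00% in LM and 26.9% in CF. Of the limb and face sites, 79.2% overlapped a peak in the second LM list and 85.3% in CF, against 1.67% to 2.41% in the 4 neural lists. All shares in the member tissues lay above all shares in the other arm, and HB had the lowest share and CF the highest on the respective side for the neural sites. Members had been chosen by the first lists of the same tissues. This order therefore carries over from the rule as far as the first and second lists share data, and is not a separate check.

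The sites with the highest mean fold were uneven across their own lists. The neural site near Ptprn had folds of 4.13 in FB, 33.2 in MB, 28.6 in HB and 29.1 in NT. The site at the promoter of Otud7a, a deubiquitinase gene, had 4.39, 34.8, 24.4 and 24.0 in the same order, and that in Col23a1, a collagen gene, 3.76, 46.3, 27.02 and 2.81. FB was the low list at Ptprn and Otud7a, and FB and NT at Col23a1. Among limb and face sites Clvs1 had 3.24 in LM and 46.6 in CF, Arrdc4 3.53 and 33.8, and Trmt12 4.12 and 33.1, with CF the high list each time.

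The other sites in the top 10 by mean fold were near Cfap65, Pot1b, Cyp46a1, Ptprb, Topaz1, Adgrb1 and Celf4 for the neural class and near Mgst2, Phactr1, Nav2, Prkci, Plbd1, Poc1b and Nr3c1 for limb and face. The highest list exceeded the lowest by more than 3 times at 9 of the 10 neural and 10 of the 10 limb and face sites at the top, against 15 (4.29%) of all 350 and 19 (1.76%) of all 1078. A motif match was present at 4 and 2 of these top 10, whereas the 10 strongest shared sites all had one and none varied by more than 3 times. Since the motif was learned from the strongest FB peaks, a match at the strongest shared sites is partly built in.

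Ranked instead by their lowest fold in any list of their class, an order chosen after the values were seen, the members were led by sites of even strength. In the neural class, the site within Ptprn2, a relative of Ptprn, had folds of 11.9 in FB, 10.5 in MB, 8.55 in HB and 9.49 in NT. The site just upstream of Nova2, shown above, had 8.86, 11.1, 8.36 and 9.49, and that of Igsf21 had 8.56, 8.06, 10.1 and 8.57. These sites differed little among the neural lists, and 90 (25.7%) of the 350 had a fold of at least 5 in all 4. In the limb and face class, the site near Tada1 had 10.2 in LM and 9.36 in CF, that near Rnd3, encoding a small GTPase, 9.24 and 9.96, and that near Matn1, encoding a cartilage matrix protein, 8.24 and 10.3. A fold of at least 5 in both LM and CF was found at 229 (21.2%) of the 1078. No member of either class reached 10 in all of its lists.

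Peaks joined by the overlap rule mostly had summits close together. The overlapping summit lay within 100 bp of the FB summit at 94.0% of neural sites in MB, 90.6% in HB and 94.0% in NT, and within 100 bp of the LM summit at 89.2% of limb and face sites in CF. The nearest summit of any LM or CF peak was within 500 bp at 14 (4.00%) of the neural sites, at a median distance of 10163 bp, and the nearest summit of any neural list within 500 bp at 27 (2.50%) of the limb and face sites, at a median of 7705 bp.

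The share of members with a CTCF motif lay below that of shared sites, and the median match scored lower. A match lay in 254 of 350 neural peaks (72.6%, 95% Wilson interval 67.7% to 76.98%) and in 811 of 1078 limb and face peaks (75.2%, 72.6% to 77.7%), against 92.7% of shared sites. The share depends on peak width, which had a median of 260 bp for neural, 252 bp for limb and face and 489 bp for shared sites, so it was also counted in windows of 200 bp around the summit, where it was 69.7%, 70.9% and 91.5%, against 5.38% of windows placed 5 kb from FB peaks. The median score of the matches was 13.3 bits at neural, 13.8 at limb and face and 16.6 at shared sites. A match lay within 50 bp of the summit in 85.4%, 79.8% and 94.4% of the peaks that had one. These intervals cover counting error over sites and treat sites as independent.

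A larger share of neural than of limb and face sites lay at promoters, with Wilson intervals that met. Of the neural sites, 29.4% (95% Wilson interval 24.9% to 34.4%) were within 3 kb of a TSS, 31.1% in introns, 2.86% in exons and 36.6% between genes. The limb and face sites had 22.4% (20.0% to 24.9%) at promoters, 31.9% in introns, 2.97% in exons and 42.8% between genes, and the shared sites lay between the classes with 27.4% at promoters. Within 1 kb of a TSS were 20.9% of neural, 12.2% of limb and face and 16.6% of shared sites. Counting only peaks with a motif, 22.4% of neural, 19.98% of limb and face and 26.01% of shared sites were within 3 kb, so the neural share then lay between the others, and its interval (17.7% to 28.0%) held both of them.

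The base composition and the motif moved with this placing. At neural promoter sites 55.3% had a motif match, against 79.8% of neural sites elsewhere, whereas limb and face sites had 67.2% and 77.5% and shared sites 88.0% and 94.5%. The median GC content of the summit windows was 51.5% at neural, 47.0% at limb and face and 49.0% at shared sites, and windows with at least 10 CpG made up 18.0%, 7.05% and 12.5%. Short motifs of other factors, searched on both strands of the 200-bp windows, had Wilson intervals that met between neural and limb and face sites. For CAGATG the limb and face interval (19.3% to 24.3%) lay above that of shared windows (17.1% to 17.9%). The E-box CAGCTG was in 13.7% of neural, 10.3% of limb and face and 10.9% of shared windows, CAGATG in 20.0%, 21.7% and 17.5%, and TAATTA, the core of many homeodomain motifs, in 4.57%, 5.19% and 4.18%.

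Lists that the rule did not use showed the members again in part. The liver (LV) list of E12.5, from 2 libraries called technical replicates in the labels, had a peak at 111 neural sites (31.7%, 95% Wilson interval 27.1% to 36.8%) and at 234 limb and face sites (21.7%, 19.3% to 24.3%), against 92.0% of shared sites. In FB of later stages, neural sites were listed in 70.3% of cases at E13.5 and 91.7% a day later, then in 84.6% at E15.5, 64.0% on the next day and 80.6% at birth (P0). The shares of limb and face sites were 18.7%, 44.6%, 34.2%, 25.5% and 47.6% in the same order, and shared sites in 96.2% to 99.5%. At every stage the neural share lay above the limb and face share. Neural sites had been chosen for a peak in FB at E12.5, so this order carries over from the rule as far as binding in FB persists.

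**Figure D2:**
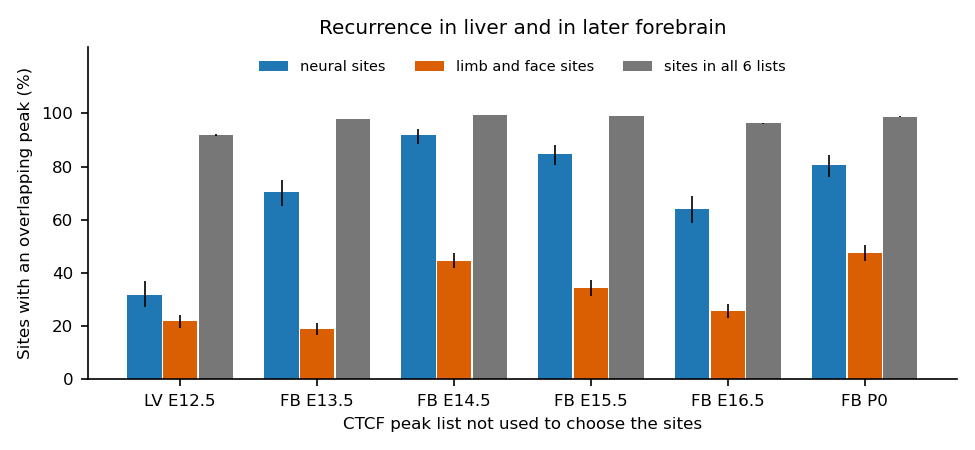
Percent of neural sites, limb and face sites and shared sites that overlapped a CTCF peak in the LV list of E12.5 and in the FB lists of E13.5 to P0, with 95% Wilson intervals over sites. Neural sites ranged from 31.7% in LV to 91.7% in FB at E14.5, and limb and face sites from 18.7% to 47.6%.

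The shares rose and fell together in both classes from list to list. The later FB lists differed in size, from 47701 peaks at E13.5 to 62782 at P0, and in strength, with a median fold at shared sites from 12.0 at P0 to 23.6 at E14.5, where the 2 libraries are technical replicates by their titles, and P0 has 1 library. In all 5 later FB lists were 150 (42.9%) of the neural, 36 (3.34%) of the limb and face and 93.7% of the shared sites, and in none of them 6 (1.71%), 265 (24.6%) and 3 sites. Where a neural site was listed later, its median fold was between 5.05 at P0 and 7.96 at E14.5, and where a limb and face site was, between 3.84 at E15.5 and 5.67 at E14.5.

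By the nearest TSS, neural sites belonged to 337 protein-coding genes and limb and face sites to 1001, of 21924, and the gene lists were described by the count of sites nearest to their genes, with shared sites beside them. Genes of the neuronal membrane and synapse, 37 in all, were nearest to 7 (2.00%) of the neural sites, 2 (0.186%) of the limb and face sites and 0.704% of the shared sites. The neural sites were near Elavl2, Elavl4, Stmn2, Dcc and Cadm2. Elavl2 and Elavl4 encode neuronal RNA-binding proteins, Stmn2 a regulator of microtubules in growth cones, Dcc the netrin receptor of growing axons and Cadm2 a synaptic adhesion protein. The strongest site of Elavl2, in an intron and without a motif match, had folds of 8.86 in FB, 12.2 in MB, 8.38 in HB and 7.71 in NT.

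The 30 neural transcription factor genes were nearest to 3 (0.857%) of the neural and 5 (0.464%) of the limb and face sites. For shared sites the share was 0.217%. The neural ones were Insm1, with folds of 6.27 in FB, 6.23 in MB, 7.10 in HB and 6.12 in NT, Pou3f2, with 4.72, 6.16, 2.73 and 4.90, and Pou3f1, with 7.83, 6.03, 5.43 and 4.54. The limb and face ones were near St18, Ebf1, Ebf3 and Sox11. The 25 regional neural identity genes had 1 neural site (0.286%) and 2 limb and face sites (0.186%), against 0.245% of shared sites. The neural site lay 85 kb upstream of Pax2, a factor of the midbrain and hindbrain boundary, with folds of 8.15, 7.41, 7.71 and 11.9. The limb and face sites were near Evx1 and Nkx6-1. The 15 neural progenitor genes had 1 neural site (0.286%), at Gpm6a, and 1 limb and face site (0.0928%), at Vim, against 0.122% of shared sites. The counts of neural and of limb and face sites at these 3 lists were too few to order the classes.

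Limb, face and mesenchymal gene lists were nearest to a larger share of limb and face sites than of shared sites. Neural sites at these lists numbered 0 or 1 each, too few to be set against the shared share. The 26 limb patterning genes were nearest to 9 (0.835%) of the limb and face sites, 0 of the neural sites and 0.202% of the shared sites. The strongest were near Meis1, a homeobox gene of the proximal limb (3.53 in LM, 17.9 in CF), Pitx1, a hindlimb homeobox gene (9.42 and 6.37), and Grem1 (7.07 and 5.64). The site near Tbx4, a T-box gene of the hindlimb, had 5.80 and 5.74. Msx1, a homeobox gene of limb and jaw, had 4.12 and 6.73, Fgf10 3.45 and 6.94, and Bmp4 3.83 and 6.04, so CF was the higher list at these 3 and LM at Pitx1 and Grem1. The eighth gene was Bmp2.

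The 30 craniofacial mesenchyme genes were nearest to 8 (0.742%) of the limb and face sites, 1 neural site and 0.214% of the shared sites. The site near Foxf2, a forkhead gene of palate mesenchyme, had folds of 11.2 in LM and 6.34 in CF, and that near Six2 7.67 and 7.01. Further sites were near Pax9, Alx4 and Osr1. The neural site of this list was that of Pax3, with 6.08 in FB, 8.70 in MB, 6.70 in HB and 7.66 in NT, a gene that the muscle list also held.

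The 34 mesenchymal and skeletal genes were nearest to 15 (1.39%) of the limb and face sites, 0 of the neural sites and 0.395% of the shared sites. The site near Bnc2 had folds of 9.36 in LM and 5.13 in CF, the stronger site within Tbx15 7.00 and 4.83, and the site near Postn, encoding the matrix protein periostin, 3.58 and 8.13. The site at the start of Twist1, a helix-loop-helix factor of mesenchyme, had 4.90 and 5.67. Further sites lay near Runx3, Dcn, Ebf1 and Cdh11, of which Ebf1 was also on the neural factor list. The remaining lists had 0 or 1 site per class, and were nearest to so few shared sites that such counts say nothing particular to the members. The 12 muscle genes had 1 neural and 0 limb and face sites (0.107% of shared sites), the 16 erythroid and endothelial genes 0 of either (0.0979%), and the 15 housekeeping genes 1 limb and face site, near Ywhaz (0.0857%). The 11 clustered protocadherin genes of the list also had 0 of either (0.0153%), but the list does not hold the whole clusters. Pcdhgb4, a gamma protocadherin gene outside it and named here after its values were seen, had a neural site at its promoter with folds of 5.64 in FB, 8.38 in MB, 4.67 in HB and 5.82 in NT.

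No gene was nearest to 3 or more neural sites. Arhgef3, Bicc1, Bmpr1a, Col8a1 and Mki67 each had 3 limb and face sites. Bmpr1a encodes a BMP receptor and Col8a1 a collagen chain, and at Col8a1 the mean folds of the 3 sites lay between 4.36 and 7.02 with no shared site nearest to the gene, while Mki67 also had 14 shared sites.

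Sites of both classes were nearest to the same gene in 32 cases, with a median distance of 96.1 kb between the closest pair of summits, and within 20 kb in 6. The closest pairs were near Klhl7 (2.61 kb apart), Dlgap3 (4.16 kb) and Camk2b (10.2 kb). At Igsf21 the neural site with folds of 8.06 to 10.1 and a limb and face site with 9.42 in LM and 7.85 in CF were 14.98 kb apart. Both sites of Igsf21 were among the 10 of their class with the highest lowest fold. These pairs were picked out after their values were seen.

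At shared sites, which neither class rule used, the 4 neural lists were compared with LM and CF to see whether binding strength differed where CTCF was found in every tissue. The lower and upper quartiles of the log2 difference (neural minus limb and face, each list centred on its median) were −0.19 and 0.21, with a median standard error of 0.26. None of 32671 passed an adjusted p of 0.05 with limma (0% of sites), the smallest adjusted p was 0.0544, and 2513 (7.69%) had an unadjusted p under 0.05. A difference of more than 1 in log2 was seen at 230 sites, 97 higher in the neural lists and 133 higher in LM and CF. Without the HB list 17 sites passed, 16 of them higher in LM and CF, and other settings gave 0 to 2. The HB libraries were sequenced in single and paired-end runs, and whether this bears on the count was not tested. With 4 lists against 2, a permutation of the lists for a single site has 15 splits and cannot give an exact p under 0.0667.

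Interaction ends were read in 10-kb bins. The authors' calls join a pair of bins 20 kb to 1000 kb apart on the 19 autosomes, at least 1 end of which must hold an H3K4me3 peak of that tissue, so a difference in calls and a difference in H3K4me3 at the promoter cannot be told apart, and a bin with 0 calls may have contacts that were not called. The 342 autosomal neural sites fell in 342 bins and the 1060 autosomal limb and face sites in 1058. The 3 bins that held both classes were left out. Another CTCF peak lay in 43.0% of neural-site and 42.4% of limb and face-site bins, and a protein-coding TSS in 36.5% and 30.6%. The libraries held 12461 to 33700 interactions, most in HB and fewest in LM replicate 1, and the pooled calls 51264 (FB) to 71456 (NT).

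Calls at the TSS bins of marker genes were read as a check of the tissues. In pooled calls Prrx1 had 50 interactions in LM and 51 in CF against 0 to 3 in the neural tissues, and Alx1 had 13 in CF and 1 in LM against 0. The tissue a gene was taken to mark was not the highest for 5 of the 12 regional markers. These were Tbx5, with 7 in LM and 14 in HB, Pitx1, with 12 in LM and 17 in CF, Pax5, with 15 in MB and 25 in NT, Hoxb2, with 21 in HB and 33 in NT, and Egr2, with 4 in HB and 18 in CF. Of the erythroid and endothelial markers Klf1 had 1 to 3, Kdr 0 to 2 and Cdh5 0 in these tissues. The neuronal marker Tubb3 had 0 throughout and Elavl3 2 to 15 in neural tissues, 0 in LM and 4 in CF.

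A larger share of neural-site bins had an interaction in neural tissues than in LM and CF, and the order was the opposite for limb and face-site bins. Of the 339 neural-site bins, 50.7% had an interaction in the pooled calls of FB, 56.3% in MB, 55.5% in HB and 61.4% in NT, against 41.0% in LM and 44.0% in CF. Of the 1055 limb and face-site bins, 35.3% had one in FB, 36.6% in MB, 38.4% in HB and 45.0% in NT, against 46.9% in LM and 47.3% in CF. In both classes the tissue groups did not overlap, although NT and LM lay close together for the limb and face class. Bins with a shared site and no member had 45.0% to 55.5% in neural tissues and 48.9% and 50.8% in LM and CF.

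The mean number of interactions per neural-site bin was 2.31 in FB, 2.49 in MB, 2.74 in HB and 3.20 in NT, against 1.20 in LM and 1.70 in CF. The ratio of the group means was 1.85 for these bins, 0.734 for limb and face-site bins and 1.04 for shared-site bins. In bins without any other CTCF peak the ratio was 1.67 and 0.647, and in bins without a TSS 2.29 and 0.795. The ratio was therefore on the same side of 1 with and without a further peak or a promoter in the bin. Called interactions of members had a median observed over expected ratio of 3.29 to 3.55 and a median distance of 260 to 300 kb over both classes and all 6 tissues. Shared-site bins had 3.47 to 3.64 and 270 to 300 kb. In each tissue the median ratio of shared-site bins lay slightly above that of both classes.

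The 12 replicate libraries gave the same picture. The share of a library's interactions that ended in a neural-site bin had a lowest value of 1.58%, a median of 1.73% and a highest of 1.93% over the 8 neural libraries, and was 0.618% and 0.761% in the LM libraries and 0.905% and 0.875% in the CF libraries. The share ending in a limb and face-site bin was lowest at 2.61%, median 2.93% and highest 3.09% in the neural libraries, and 4.82% and 4.48% in LM and 4.90% and 5.00% in CF. The arms did not overlap for either class. The means were 1.73% ± 0.10 (SD, n = 8) and 0.790% ± 0.130 (SD, n = 4) for neural-site bins, and 2.89% ± 0.145 and 4.80% ± 0.227 for limb and face-site bins. Shares ending in shared-site bins were 74.6% to 78.1% in neural and 77.6% to 78.8% in LM and CF libraries and overlapped.

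**Figure D3:**
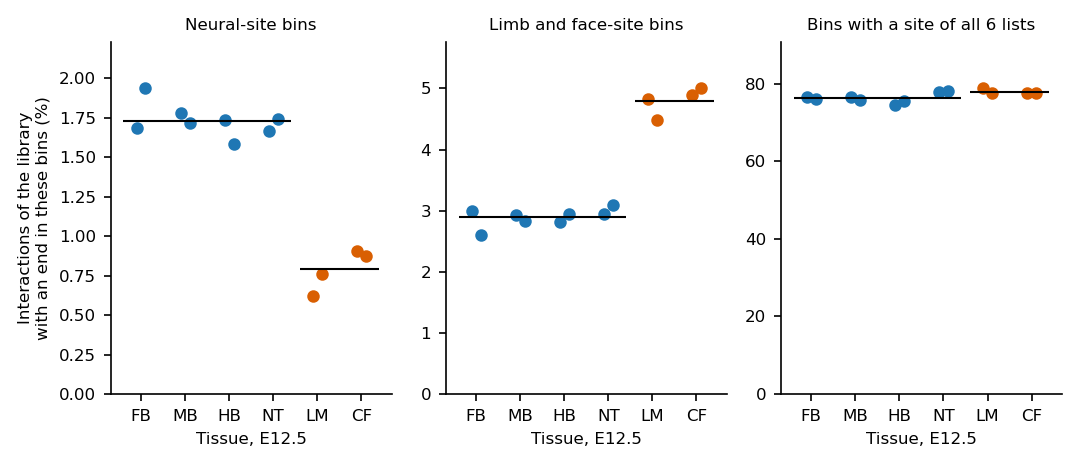
Percent of each PLAC-seq library's called interactions that ended in a bin with a neural site, a limb and face site, or a shared site and no member, 1 point per replicate library. Neural libraries lay at 1.58% to 1.93% and LM and CF libraries at 0.618% to 0.905% for neural-site bins, with the opposite order for limb and face-site bins.

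As a log2 ratio of these shares, neural over limb and face, the neural libraries had a mean of −0.74 ± 0.14 (SD, n = 8) and the LM and CF libraries −2.62 ± 0.24 (SD, n = 4), a difference of 1.88. The difference was 1.95 in bins without another CTCF peak and 2.10 in bins without a TSS. A p is not given for these scores because they run over chosen members.

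Bin by bin, the scaled number of interactions (library totals set to their median of 20978, then log2 of the number plus 1) was compared over 8 neural and 4 LM and CF libraries with limma. A bin entered with a mean scaled number of at least 1, which a bin could reach through the arm where it was high, and 7232 of 51222 bins with a CTCF peak did so. Over these, 886 (12.3%) were higher in neural and 514 (7.11%) higher in LM and CF libraries at an adjusted p under 0.05. Without scaling of the libraries the split was 1282 and 181, with a median difference over all bins of 0.36 in place of 0.03. Of the 339 neural-site bins 68 entered, of which 30 were higher in neural libraries and 1 in LM and CF. Of the 1055 limb and face-site bins 173 entered, of which 38 were higher in LM and CF and 13 in neural libraries. Bins with a shared site and no member stood near the background, with 591 (11.4%) and 360 (6.94%) of 5190.

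Among entered bins without a TSS, 18 of 35 neural-site bins were higher in neural libraries, and 18 of 91 limb and face-site bins were higher in LM and CF. Over all 3728 entered bins without a TSS, 11.5% were higher in neural and 4.61% higher in LM and CF libraries. Of entered bins without another CTCF peak, 8 of 26 neural-site and 15 of 42 limb and face-site bins were higher in their own arm. For these the share over all bins was not counted. Entry was by the rule above, which a high arm alone could meet. The 30 and 38 calls became 18 and 23 with edgeR, 15 and 18 with DESeq2, and 10 and 16 when the libraries of a tissue were averaged so that 4 tissues stood against 2. Without scaling of the libraries 30 neural-site bins were called in neural libraries and 14 limb and face-site bins in LM and CF. The 38 calls fell to 25 without LM replicate 1, the shallowest library, and likewise to 25 without LM replicate 2.

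The largest difference at a neural site was in the bin of Igsf21. Its neural libraries had 5.28 (lowest), 16.3 (median) and 21.4 (highest) scaled interactions, against 0 and 0 in LM and 2.33 and 0 in CF, a log2 difference of 3.58 ± 0.38 (SE, limma adjusted p = 2.22e-05). The arms did not overlap, and this bin also held the TSS of Igsf21 and a shared CTCF site. The bin of the Pou3f2 site held neither, but the site was at the promoter, 2159 bp upstream of the TSS, which lay outside the bin. This bin had 3.96, 8.995 and 20.6 in neural libraries and 0 in all 4 LM and CF libraries (3.40 ± 0.32, limma adjusted p = 9.29e-06). It could enter the fit only through the neural arm, as could the bins below that were at 0 in all LM and CF libraries. Their p-values and standard errors are therefore descriptive and no separate support. The bin of the site nearest to Rapgef5, a gene for a Rap exchange factor, had 3.96, 13.6 and 23.5 against 0 and 0 in LM and 2.33 and 0 in CF (3.28 ± 0.42, limma adjusted p = 9.69e-05). That site lay far upstream of the nearest Rapgef5 TSS, in an intron whose gene was not determined.

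The bin near Mef2c, a transcription factor gene of neurons and muscle, had a lowest, median and highest neural value of 13.7, 19.1 and 39.2, against 0 and 1.01 in LM and 5.82 and 3.32 in CF (2.92 ± 0.42, limma adjusted p = 2.38e-04). At Lhx1, a LIM homeobox gene of spinal and hindbrain neurons, the site was at the promoter, and the bin had 16.0, 22.9 and 34.7 against 3.37 and 4.04 in LM and 12.8 and 6.63 in CF (1.77 ± 0.29, adjusted p = 7.27e-04). Unlike Pou3f2, these bins kept calls in CF and LM. The bin near Onecut1, a factor gene of motor neurons and interneurons, had 0, 6.43 and 12.2 in neural libraries and 0 in all 4 others (2.59 ± 0.55, adjusted p = 0.00487), so its arms touched at 0, and with tissues as samples its adjusted p was 0.0572.

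The bins of Ythdf1, Dner and Dcc were at 0 in all LM and CF libraries, and Kcnc1 at 0 in LM. A shared CTCF site also lay in the bins of Mef2c, Ythdf1, Dner and Kcnc1, and those of Lhx1, Dner and Kcnc1 held the TSS of that gene. Ythdf1 encodes a reader of methylated RNA, and its bin had a log2 difference of 2.67 ± 0.23 with neural libraries from 3.30 to 7.83. Dner, a neuronal transmembrane gene, had 2.21 ± 0.29 with a neural range of 1.76 to 6.85. Kcnc1, a potassium channel gene, had 2.05 ± 0.36 with 6.15 to 7.98 in neural libraries and 2.33 and 3.32 in CF, and Dcc had 2.30 ± 0.27. The neural-site bin that was higher in LM and CF, named here after its values were seen, was that of Pmepa1, with 0 to 7.92 in neural libraries, 11.8 and 15.1 in LM and 9.32 and 9.95 in CF (−1.71 ± 0.48, limma adjusted p = 0.022).

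At limb and face sites, the bin of Twist1 had the largest difference. Its neural libraries had 0 (lowest), 0.938 (median) and 1.53 (highest) scaled interactions, against 15.2 and 25.2 in LM and 10.5 and 16.6 in CF, a log2 difference, neural minus limb and face, of −3.39 ± 0.34 (limma adjusted p = 1.37e-05). The bin of Bmp4 had 0, 2.39 and 2.97 against 23.6 and 20.2 in LM and 15.1 and 17.7 in CF (−2.96 ± 0.40, adjusted p = 1.51e-04). The bin of Tbx15 had 0, 1.92 and 3.05 against 35.4 and 24.2 in LM and 6.99 and 13.3 in CF (−2.80 ± 0.43, adjusted p = 4.12e-04). No neural library reached a limb or face library at these 3 genes, and at Tbx15 LM stood above CF.

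The bin of Six2, a homeobox gene of facial mesenchyme and kidney, had 1.77, 5.28 and 11.2 in neural libraries against 15.2 and 18.2 in LM and 37.3 and 35.4 in CF (−2.06 ± 0.37, limma adjusted p = 0.00153), with CF above LM. The bin of Osr1, a zinc-finger gene of limb and palate mesenchyme, had 0, 2.21 and 5.28 against 10.1 and 12.1 in LM and 12.8 and 26.5 in CF (−2.45 ± 0.42, adjusted p = 0.0011). Sema3a, which encodes a secreted guidance cue for axons, had 0 in all 8 neural libraries and 6.73 and 3.03 in LM and 2.33 and 2.21 in CF (−2.09 ± 0.28, limma adjusted p = 1.34e-04). The Sema3a bin could enter the fit only through LM and CF, so this p is no separate support. Of the other named bins, Pcsk5 had −2.68 ± 0.40, Prickle1, of the planar polarity pathway, −2.48 ± 0.48, Mylip −2.48 ± 0.40 and Pdzrn3 −2.13 ± 0.47. At Pdzrn3 the arms overlapped, since LM replicate 1 was at 0 like most neural libraries. Each of these 10 bins held the TSS of a gene, and those of Twist1, Bmp4, Pcsk5, Osr1 and Pdzrn3 also held a shared CTCF site. Promoter activity, the limb and face site and, in those bins, a shared site thus share the bin. Their parts in the difference were not tested.

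**Figure D4:**
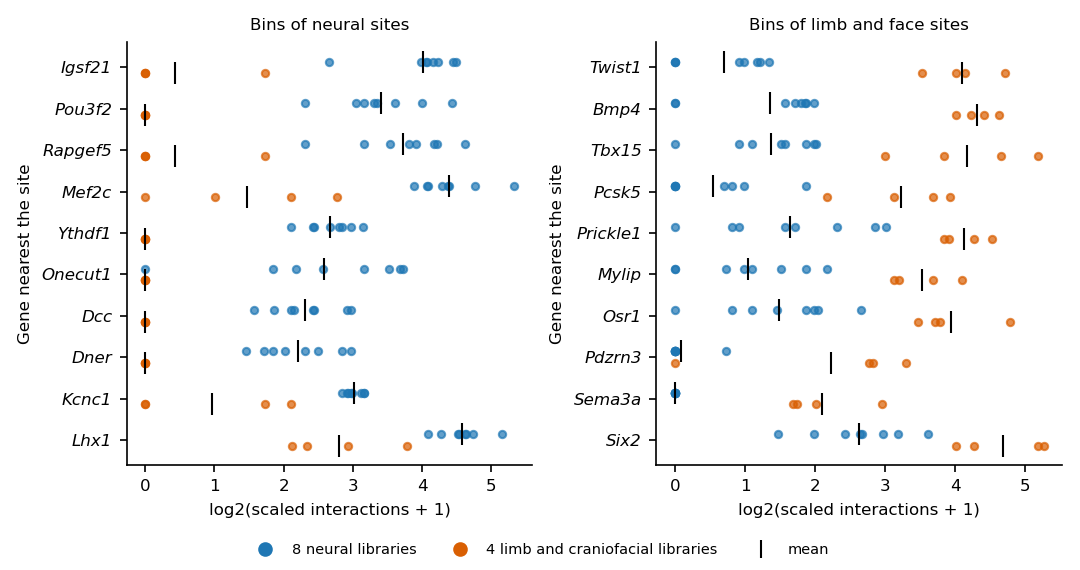
Log2 of the scaled number of called interactions plus 1 in the bins of the 10 neural and 10 limb and face sites with the largest difference past the limma threshold, 1 point per library (8 neural, 4 LM and CF), with a bar at the mean of each arm. Before the log2, Pou3f2 lay at 3.96 to 20.6 in neural libraries and 0 elsewhere, and Twist1 at 0 to 1.53 against 10.5 to 25.2.

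The pooled calls joined members to promoters at a distance. Site bins of the neural class formed 607 pairs with a protein-coding promoter bin in any of the 6 tissues, 75 of them called in all 4 neural tissues, and 11 (14.7%) of those in neither LM nor CF. Of 72 pairs called in both LM and CF, 8 (11.1%) were in no neural tissue. The limb and face class formed 1741 pairs, 362 of them called in both LM and CF and 64 (17.7%) of those in no neural tissue, and of 191 pairs called in all 4 neural tissues 14 (7.33%) were in neither LM nor CF. These are counts of thresholded calls with 1 pooled value per tissue and no test. The same shares were not counted for shared-site bins or for all bins, so they cannot be called particular to the members. The directions also differ in how many tissues had to have or to lack the call.

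The neural link with the highest ratio joined the site near Cdca7 shown above to Sp9, a zinc-finger gene of forebrain interneurons and limb ectoderm, over 640 kb. The observed over expected ratio of read pairs was 8.24 in FB, 3.30 in MB, 4.89 in HB and 3.89 in NT. A site near Eipr1 was linked to Myt1l, a zinc-finger factor gene of neurons, over 430 kb, with 3.91, 4.17, 5.17 and 3.11, and a site near Irx1 to Irx2, a neighbouring Iroquois homeobox gene, over 340 kb, with 2.92, 5.33, 3.72 and 3.34. FB was highest at Sp9 and MB or HB at the other pair. The promoter site of Lhx1 was linked to Acaca, encoding the acetyl-CoA carboxylase of fatty acid synthesis, over 240 kb. The other linked genes were Mrps10, Fbxo15, Plxna1, a semaphorin receptor gene, Zmynd19 and Noxa1.

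For limb and face, the highest ratio was that of a site near Efcab1 with Snai2, a zinc-finger gene of epithelial to mesenchymal transition, over 350 kb, at 10.7 in LM and 6.80 in CF. The site near Bnc2 shown above was linked to the Bnc2 promoter over 610 kb with 7.46 and 5.09. The site near Ets1 was linked over 540 kb to its neighbour Fli1, an ETS factor gene of mesenchyme and endothelium, with 5.42 and 6.81. A site near Mylk4 was linked to Foxc1, a forkhead gene of craniofacial mesenchyme and eye, over 810 kb with 4.34 and 6.48. LM had the higher ratio at Snai2 and Bnc2 and CF at Fli1 and Foxc1. Further pairs reached Spag17 from the Tbx15 site over 770 kb, Chchd7 and Plag1 from a site near Impad1 over 780 kb, and Mmadhc from the Rnd3 site over 970 kb. Srsf11, 2010003K11Rik and Rtcb completed the 10 pairs with the highest ratios.

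The orientation of the motif was set against the direction of the interactions, since loops usually form on the side toward which the motif points. At 244 neural sites with a motif, the share of pooled interactions on that side was 53.3% in FB, 56.5% in MB, 54.2% in HB, 57.7% in NT, 53.0% in LM and 54.1% in CF. At 793 limb and face sites it was 58.7%, 57.7%, 57.8%, 57.4%, 58.8% and 56.8% in the same order. Shared sites had 73.3% to 75.3%. The shares of members were lower than those of shared sites in all 6 tissues, and did not separate the tissues that had the peak from those that did not.

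**Figure D5:**
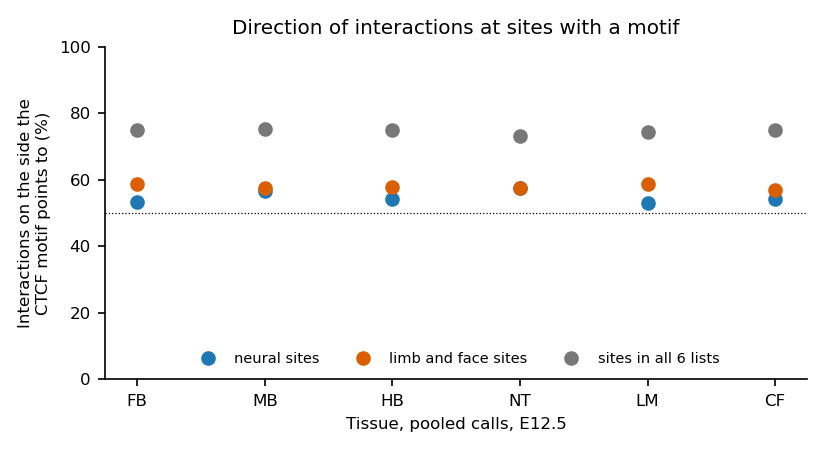
Percent of pooled interactions that lay on the side toward which the CTCF motif pointed, by tissue, for neural sites, limb and face sites and shared sites, with a dotted line at 50%. Members lay between 53.0% and 58.8% and shared sites between 73.3% and 75.3%.

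Sites with no other listed CTCF peak in their own bin were also read. Peaks in neighbouring bins and at the partner end were not excluded, and shared sites were not limited in this way. The share at such neural sites was 59.0% to 62.4% in neural tissues, 60.0% in LM and 54.1% in CF. At such limb and face sites it was 56.1% to 60.5% in neural tissues, 57.3% in LM and 54.2% in CF. In single libraries the share at all 244 neural sites was 48.5% to 58.5% in the neural and 34.2% to 50.7% in the LM and CF libraries, the latter on 38 to 95 interactions each.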

How the data were processed

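CTCF ChIP-seq peaks came as 1 list per tissue, in which the authors had mapped reads to mm10 (BWA, SAMtools and Juicer are also named in the submitters' processing notes, without versions), called peaks on pooled replicates against input with MACS2 at a p of 0.01 and kept those overlapping peaks of both replicates. The deposited fold enrichment is a ratio over input, and the deposited −log10 q-value served only as a stricter filter. Library depth is not in the lists. PLAC-seq calls were made by the authors with MAPS (false discovery rate under 1%, observed over expected of at least 2, 10-kb bins). The deposited counts of read pairs were divided by the deposited expected signal of the same calls, and the pooled calls had been downsampled by the authors. Interactions per bin are numbers of calls, not reads.

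The sites, gene lists and tests were chosen with earlier results of these data known. Sites were named by the nearest protein-coding TSS (GENCODE M21). Named sites were the 10 per class with the highest mean fold, up to 10 per class among bins past the threshold, up to 8 genes per list, genes with at least 3 sites, and up to 10 links per class by observed over expected ratio. Bins were tested with limma 3.58.1 (trend, Benjamini-Hochberg adjustment) in R 4.3.3, with edgeR 4.0.16 and DESeq2 1.42.0 on call numbers as alternatives. The motif matrix of 19 bp was scanned at a p of 1e-04 with own code in Python 3.11.15. Both fits were tested on simulated data. For biological replicates the labels do not say which animals were pooled, and p-values measure the spread between these libraries. A few genes of the lists and markers are not reported here.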

Additional observations from a re-analysis of the deposited data

Results flagged for a closer look

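In groups of 4 to 10 libraries, 8 values out of 80 groups examined stood apart from the rest of their group by Dixon's criterion, where chance gives about 1 in 20. Of the shares of interactions, LM replicate 1 had 78.8% in bins with a shared site and no member, above the other LM and CF libraries, and the log2 ratio of neural-site over limb and face-site shares was −0.43 in FB replicate 2, the highest of the neural libraries. Of the scaled numbers of interactions, the Igsf21 bin had 5.28 in HB replicate 2, below the other neural libraries, and 2.33 in CF replicate 1, above the other LM and CF libraries at 0. The Rapgef5 bin likewise had 2.33 in CF replicate 1. The Pcsk5 bin had 2.66 in NT replicate 1 and the Pdzrn3 bin 0.659 in HB replicate 2, each the highest neural value, and the Osr1 bin had 26.5 in CF replicate 2, the highest of the LM and CF libraries.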

How the results depend on the processing

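CTCF lists hold 1 pooled value per tissue and no depth, so weak members cannot be given an error within a tissue, and the interaction fit takes 2 libraries per tissue as samples. At shared sites the limma count of 0 became 2 without centring, 2 with 50% overlap and 2 with motif sites only, and ranged from 0 to 17 when each list was left out (17 without HB, 1 without MB, 1 without CF). Quantile scaling, the second lists, no trend and a mean fold of at least 5 gave 0. Of the bins, 1400 calls became 746 with edgeR, 476 with DESeq2 and 463 with tissues as samples, and ranged from 880 (without LM replicate 1) to 1448 over libraries left out. Bins higher in neural libraries (886) became 504, 312 and 306 in these fits, with a range of 587 to 1006. Bins higher in LM and CF (514) became 242, 164 and 157, with a range of 293 to 535, again lowest without LM replicate 1. Without scaling the calls split into 1282 higher in neural and 181 higher in LM and CF, with a median difference over all bins of 0.36 in place of 0.03, and 14 limb and face-site bins were called. Neural-site bins (30) became 18, 15 and 10, with a range of 20 to 28, and limb and face-site bins (38) became 23, 18 and 16, with a range of 25 to 38, lowest without either LM library. The fit with tissues as samples had fewer samples, and the cause of these changes was not tested.

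The second lists gave 187 neural and 1751 limb and face sites, and an LV share of 25.2% for the latter. The promoter share of neural sites was 22.4% with motif peaks only and 20.9% within 1 kb, and that of limb and face sites 12.2% within 1 kb. A summit required to lie in the overlapping peak, and members without a summit of the other arm within 500 bp (336 and 1051 sites), both chosen after seeing the data, moved no value by more than its counting interval or 1.5 times. Of the comparisons of the 20 named bins across alternatives, 376 kept their direction and call and 1 did not, that of Onecut1 with tissues as samples.

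The replicate numbers do not pair the libraries of different tissues by any label, and the deviations of same-numbered libraries correlated between −0.097 and 0.041 over 15 pairs of tissues. With a replicate block 1277 bins were called, 820 higher in neural and 457 in LM and CF, with 30 neural-site and 33 limb and face-site bins in the direction of their class.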
